A study of Rattus norvegicus with 4 samples.

Results

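The pericentral Wnt zonation genes are 10 genes that hepatocytes around the central vein express under Wnt control, and they were chosen by name: *Axin2*, *Lgr5*, *Tbx3*, *Rnf43*, *Znrf3*, *Oat*, *Rhbg*, *Slc1a2*, *Glul*, and *Lect2*. Rows with these symbols were present for 9 of the 10 genes, of 16992 genes in all, and 8 of them had TPM values higher than 2 in all 4 libraries. *Znrf3* was not analysed here. The libraries were made from total RNA of the livers of 4 wild type male Wistar rats, 6 weeks old when purchased and kept for at least 1 week, which had no food and water for 2 hours beforehand. One rat inhaled 4.5% sevoflurane for 6 hours and another inhaled 6% desflurane for 6 hours. The other two inhaled the same concentrations of sevoflurane or desflurane only until they lost consciousness, so that both controls had also been exposed to an agent. All rats were sacrificed at about the same time of day. Because the 2 hours without food came before inhalation, the 6 h rats had gone longer without food than the controls.

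In the liver lobule, endothelial cells of the central vein secrete Wnt ligands and R-spondins, and hepatocytes close to the vein respond through Frizzled and LRP receptors with stabilized beta-catenin, which activates target genes together with TCF factors. The response is kept in check by its own targets: *Axin2* encodes a scaffold of the complex that degrades beta-catenin, *Rnf43* and *Znrf3* encode membrane ubiquitin ligases that remove Frizzled receptors, and *Lgr5* encodes a receptor through which R-spondins block these ligases. The metabolic targets serve the capture of ammonia, with *Glul* encoding glutamine synthetase, *Oat* ornithine aminotransferase, *Slc1a2* a glutamate transporter, and *Rhbg* an ammonia transporter. *Tbx3* encodes a T-box transcription factor and *Lect2* a protein that hepatocytes secrete.

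Each condition has 1 library from 1 rat, so no test was made. The effect of anesthesia, the longer time without food, and the difference between rats cannot be told apart. The depth of the libraries, derived from the ratio of FPKM to coverage, was between 4.47 and 5.40 Gb of aligned sequence. TPM is a level scaled for transcript length and depth, and genes were called with the rule of the study, which asks for a TPM value higher than 2 in the higher state and a difference of more than 2-fold. Among the 9136 genes above 2 TPM in all libraries, the log2 change had a median of 0.05 for sevoflurane and of 0.12 for desflurane, and a member is to be read against this shift. The libraries carried hepatocyte markers at high levels, with *Alb* between 77519 and 92912 TPM. The sections of the lobule were not separated, and in bulk RNA fewer pericentral cells and less RNA per cell cannot be told apart.

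The members differed widely in level. By mean TPM over the 4 libraries, *Glul* (323) was followed by *Lect2* (205), *Oat* (140), *Tbx3* (13.9), *Slc1a2* (12.4), *Rnf43* (12.2), *Axin2* (9.32), *Rhbg* (4.79), and *Lgr5* (0.407). *Glul*, *Lect2*, and *Oat* provided between 92.2% and 93.6% of the summed TPM of the members in every library. The ranges of *Glul*, *Lect2*, and *Oat* did not overlap one another, whereas those of the neighbors *Tbx3*, *Slc1a2*, *Rnf43*, and *Axin2* did. *Rhbg* and *Lgr5* lay below all of these in every library. Over the 4 livers the highest value exceeded the lowest by only 1.05-fold for *Lect2* and by 1.19-fold for *Rhbg*, but by 2.44-fold for *Slc1a2* and 3.55-fold for *Lgr5*.

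**Figure D1:**
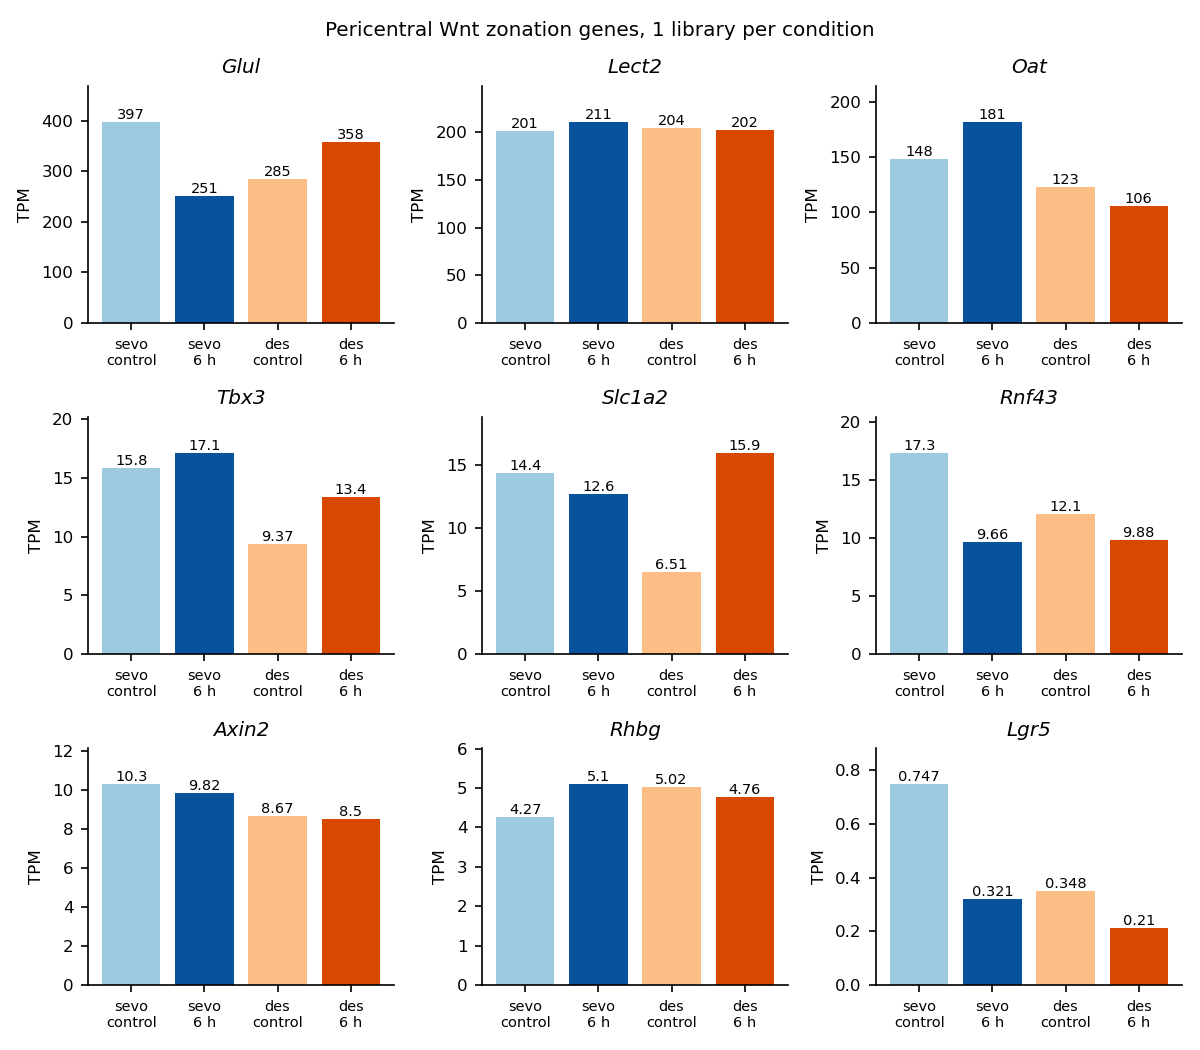
Bars give the TPM value (linear axis from 0, own scale in each panel) of the 9 measured members in each of the 4 libraries, with 1 library per bar and no error. *Rnf43* and *Lgr5* are lower in both 6 h libraries than in both controls, *Lect2* stays between 201 and 211, and *Slc1a2* is low in the desflurane control alone.

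The ammonia-capturing members are described first. *Glul* (chr13:71331052-71340207 of rn6, plus strand) reached 397 TPM in the sevoflurane control and 251 TPM in the sevoflurane 6 h library, and its values in the desflurane control and 6 h library were 285 and 358 TPM. It was 1.58-fold lower with sevoflurane and 1.26-fold higher with desflurane than in the respective controls. The lowest and the highest value thus both came from the sevoflurane pair, and the controls themselves differed 1.39-fold. Against the control of the other agent, *Glul* was 1.14-fold lower with sevoflurane and 1.11-fold lower with desflurane.

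*Oat* (chr1:204562289-204582070, minus strand), whose product passes the amino group of ornithine on toward glutamate, showed the opposite arrangement. Its TPM values were 148 and 181 in the sevoflurane control and 6 h library and 123 and 106 in the corresponding desflurane libraries. The change was 1.22-fold upward with sevoflurane and 1.16-fold downward with desflurane, and the sevoflurane 6 h library exceeded the desflurane 6 h library 1.71-fold. The ratio of *Glul* to *Oat* within a library went from 2.67 to 1.38 in the sevoflurane pair and from 2.32 to 3.38 in the desflurane pair, so these neighboring enzymes did not keep a constant ratio. *Rhbg* (chr2:187610081-187622345, minus strand) had TPM values of 4.27, 5.10, 5.02, and 4.76 in the same order, and the 6 h values lay within or close to the range of the controls.

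*Slc1a2* (chr3:92518679-92665731, plus strand) was the one member called. The sevoflurane pair showed 14.4 TPM in the control and 12.6 TPM after 6 hours, and the desflurane pair showed 6.51 and 15.9 TPM. The gene was 2.44-fold higher with desflurane than in the respective control, and 2.79% of the 9855 genes with sufficient expression were called higher in this comparison. The other libraries lay between 12.6 and 15.9 TPM and the desflurane control stood below them, so that the call rests on this 1 library. Against the sevoflurane control, the desflurane 6 h library was 1.11-fold higher. Between the controls, *Slc1a2* was 2.20-fold lower in the desflurane control and passed the limits, as did 1.17% of all genes in that direction.

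StringTie also listed assembled rows for the same locus, and these gave another picture of *Slc1a2*. In all 4 libraries, the only assembled row began 122086 bp after the start of the annotated gene, whose span is 147053 bp, and it covered the 3' part alone. The TPM values of this row were 8.34, 14.5, 6.28, and 9.21 in the order of the libraries given above. With these values, *Slc1a2* was 1.74-fold higher with sevoflurane and 1.47-fold higher with desflurane, and it was not called with either agent. Both 6 h values were then above both controls, with 9.21 and 8.34 TPM as the nearest values. With annotated rows, 34.4% of the genes above 2 TPM in all libraries were higher in this way. Assembled rows ended 2525 bp beyond the annotated gene in the sevoflurane control and 2579 bp beyond it in the desflurane 6 h library, but at the annotated end in the others. For *Oat*, by contrast, the assembled and annotated rows were identical in position and value in every library.

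**Figure D2:**
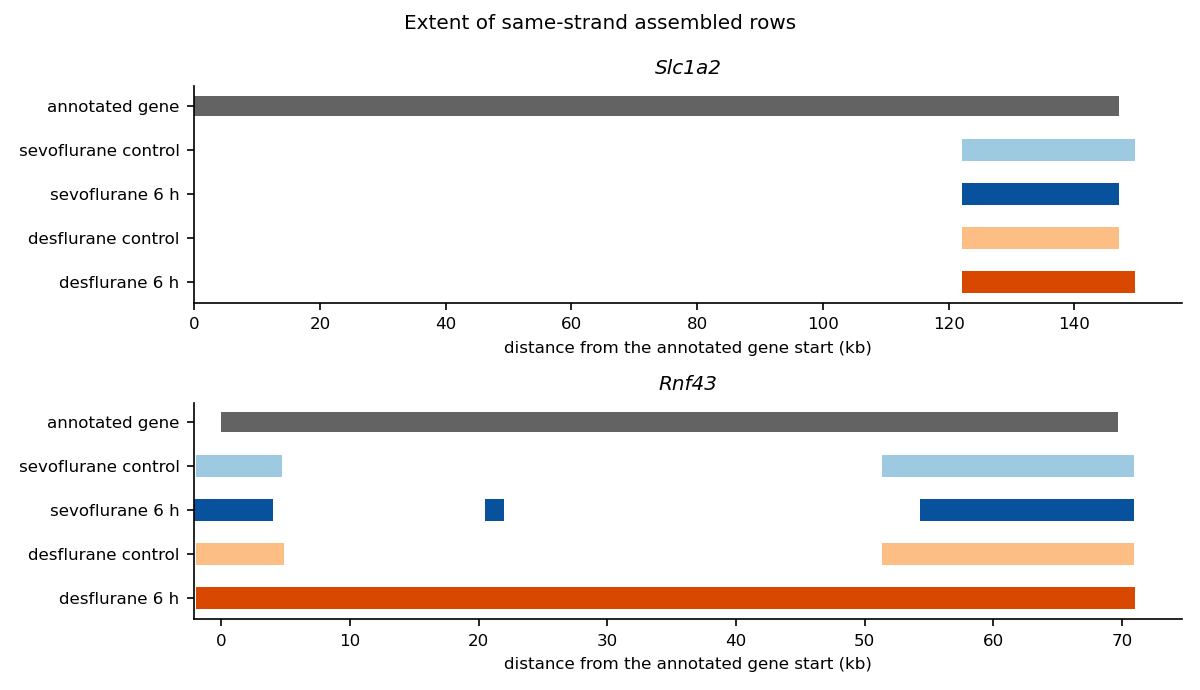
Horizontal bars show the extent of the annotated gene (gray) and of assembled rows on the same strand in each library, with the distance from the annotated gene start in kb on the horizontal axis. The *Slc1a2* row starts at the same place, 122086 bp into the gene, in all libraries, whereas *Rnf43* is assembled as 1 row in the desflurane 6 h library and as separate pieces elsewhere.

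Of the members that act in Wnt signaling itself, *Rnf43* (chr10:74959285-75028951, plus strand) had the wider gap between states. The controls of sevoflurane and desflurane had 17.3 and 12.1 TPM, compared with 9.66 after 6 hours of sevoflurane and 9.88 after 6 hours of desflurane. Both 6 h values were below both controls, with a gap of 1.22-fold between the nearest values. The decrease was 1.80-fold with sevoflurane and 1.22-fold with desflurane, and neither passed the 2-fold limit. The assembled rows of *Rnf43* were broken into pieces of different extent in 3 of the libraries. The assembled rows with the highest TPM had values of 10.6, 9.84, 9.36, and 9.25 in the sevoflurane control, sevoflurane 6 h, desflurane control, and desflurane 6 h libraries. These values overlapped between the states but do not measure the same stretch. The desflurane 6 h row spans 72941 bp, whereas the others are pieces of 16686 to 19637 bp at the end of the gene.

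*Lgr5* (chr7:58448277-58587787, minus strand) was barely expressed, with TPM values of 0.747 and 0.348 in the sevoflurane and desflurane controls and 0.321 and 0.210 after 6 hours of the respective agents. The 6 h values were below both controls, but the nearest values, 0.348 and 0.321, were only 1.08-fold apart, and with FPKM the states overlapped. The coverage of *Lgr5* was between 0.355 and 1.34, and the values were 2.33-fold lower with sevoflurane, which the TPM limit kept from the calls, and 1.65-fold lower with desflurane, which is within the 2-fold limit. *Lgr4*, the related R-spondin receptor, was far more abundant (45.9, 42.3, 50.6, and 67.7 TPM in the order sevoflurane control, sevoflurane 6 h, desflurane control, and desflurane 6 h) and was named here after its values were seen.

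*Axin2* (chr10:97212483-97238822, plus strand) is widely used as a readout of Wnt activity. It had TPM values of 10.3 and 9.82 in the sevoflurane control and 6 h library and 8.67 and 8.50 in the desflurane control and 6 h library. The decreases, 1.05-fold and 1.02-fold, were smaller than the 1.19-fold difference between the controls. *Rnf43* and *Axin2*, both feedback inhibitors, thus stood in different ratios, from 1.69 and 1.39 in the controls to 0.983 and 1.16 after 6 hours of sevoflurane and desflurane.

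*Tbx3* (chr12:42481152-42492328, minus strand) had TPM values of 15.8 and 17.1 in the sevoflurane control and 6 h library and 9.37 and 13.4 in the desflurane pair. It was 1.43-fold higher with desflurane, but the desflurane control was the lowest of the 4 libraries and 1.69-fold below the sevoflurane control. *Lect2* (chr17:8489261-8495479, plus strand), first described as a chemotactic protein, had TPM values of 201, 211, 204, and 202, and no pair of libraries differed by more than 1.05-fold.

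Promoter windows of 300 bases, from 250 bases before to 50 bases after an annotated start, were available from RefSeq (build GRCr8) for 7 of the 10 members in 9 windows, and *Lgr5*, *Tbx3*, and *Znrf3* had none. They were searched on both strands for the TCF/LEF core CTTTGAT and for the shorter CTTTGA that it contains. The longer core was present in 4 of the 9 windows, in 1 window each of *Axin2*, *Glul*, *Slc1a2*, and *Lect2*, compared with 3.63% of 33469 windows of the same length. The shorter core was present in the same 4 windows, compared with 16.1% of the 33469 windows. The windows of *Oat*, *Rhbg*, and *Rnf43* did not contain these letters. The windows with a match are printed here because the core lies in them, and that of *Rnf43* because this gene separated the states by the wider gap, with matches to either core in capitals (TCAAAG and ATCAAAG are matches on the opposite strand). They are chr10:94398535-94398834 (plus strand) for *Axin2*, chr13:68519250-68519549 (plus strand) for *Glul*, chr3:109507697-109507996 (plus strand) for *Slc1a2*, chr17:8049784-8050083 (plus strand) for *Lect2*, and chr10:72963116-72963415 (plus strand) for *Rnf43*, all in GRCr8, whereas the expression values refer to rn6.
Axin2: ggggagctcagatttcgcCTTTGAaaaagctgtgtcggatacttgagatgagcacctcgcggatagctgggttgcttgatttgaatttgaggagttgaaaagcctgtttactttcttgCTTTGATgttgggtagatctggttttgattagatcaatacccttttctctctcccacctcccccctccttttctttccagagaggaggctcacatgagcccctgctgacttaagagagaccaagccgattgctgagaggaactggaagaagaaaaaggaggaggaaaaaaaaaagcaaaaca
Glul: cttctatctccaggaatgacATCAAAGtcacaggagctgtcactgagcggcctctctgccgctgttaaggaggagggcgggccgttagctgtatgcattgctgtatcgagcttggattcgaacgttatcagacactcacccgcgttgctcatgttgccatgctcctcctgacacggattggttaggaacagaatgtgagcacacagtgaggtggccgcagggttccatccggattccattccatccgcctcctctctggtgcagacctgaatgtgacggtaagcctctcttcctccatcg
Slc1a2: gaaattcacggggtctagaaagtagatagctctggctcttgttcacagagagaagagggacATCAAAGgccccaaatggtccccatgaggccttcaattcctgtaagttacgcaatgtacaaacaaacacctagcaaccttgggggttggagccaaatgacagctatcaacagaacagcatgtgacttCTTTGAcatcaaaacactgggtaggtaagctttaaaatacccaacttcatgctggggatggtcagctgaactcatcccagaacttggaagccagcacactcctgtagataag
Lect2: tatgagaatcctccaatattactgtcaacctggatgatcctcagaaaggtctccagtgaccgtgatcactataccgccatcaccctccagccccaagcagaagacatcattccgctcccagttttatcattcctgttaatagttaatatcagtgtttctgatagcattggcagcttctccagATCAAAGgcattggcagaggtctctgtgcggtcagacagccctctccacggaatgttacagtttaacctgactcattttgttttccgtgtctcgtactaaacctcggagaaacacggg
Rnf43: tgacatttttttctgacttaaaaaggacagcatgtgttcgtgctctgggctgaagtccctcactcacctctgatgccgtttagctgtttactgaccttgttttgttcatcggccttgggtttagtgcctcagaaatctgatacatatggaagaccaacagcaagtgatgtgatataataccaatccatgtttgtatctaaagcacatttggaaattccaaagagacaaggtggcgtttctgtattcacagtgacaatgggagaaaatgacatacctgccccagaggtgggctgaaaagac
Within the match to the longer core, the letters CTTTGA or TCAAAG began 132 bases before the start in *Axin2*, 229 in *Glul*, 188 in *Slc1a2*, and 67 in *Lect2*. *Glul* and *Slc1a2* have a second window each, which held no match. The matching window of *Glul* lies 56566 bp upstream of the other one, whereas the quantified row of this gene spans 9156 bp in rn6, so the start beside the match may not be that of the quantified row. The matching window of *Slc1a2* lies 47838 bp downstream of the other one, and which start the quantified row uses was not determined. A match describes the letters in the window and not the binding of a factor. The 4 genes with a match included the called gene *Slc1a2* and also *Lect2* and *Axin2*, whose differences from their own controls were 1.05-fold or less. The remaining gene, *Glul*, was 1.58-fold lower with sevoflurane and 1.26-fold higher with desflurane.

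Against their own controls, no member was called with sevoflurane in either direction, compared with 2.23% of 9754 genes called higher and 3.3% called lower. With desflurane, *Slc1a2* was the single member called higher and no member was called lower, compared with 1.48% of all genes in the latter direction. With a limit of 1.5-fold, *Rnf43* and *Glul* were lower with sevoflurane, as were 8.08% of all genes, and no member was higher (8.03% of all genes). With desflurane, *Slc1a2* was again the one member higher (10.4% of all genes) and none was lower (4.25%). On a log2 scale with a pseudocount of 1 TPM, the 9 members had a median change of -0.06 for sevoflurane and -0.03 for desflurane, whereas the median over the 9136 expressed genes on this scale was 0.05 and 0.11. When the controls were exchanged, these medians became 0.04 and -0.22 and no member was called, compared with 2.52% of all genes higher and 2.59% lower for sevoflurane and 2.84% higher and 1.58% lower for desflurane. The difference between the control livers was larger than any of these medians, with 7 of 9 members lower in the desflurane control and a median of -0.37.

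Both 6 h libraries were lower than both controls in 2 of the 9 members, *Rnf43* and *Lgr5*, and they were higher in none. Among the 12512 genes listed above 0 in all libraries, 13.8% were lower and 31% were higher in this way, and after median-of-ratios scaling both shares were 21.7%. Among genes above 2 TPM in all libraries the shares were 13% and 34.4%, and *Rnf43* was then the 1 member of 8 that was lower. With 9 members, these counts allow no statement that the members stood apart from all genes. *Oat*, *Rhbg*, *Slc1a2*, *Glul*, and *Lect2* had fold changes on opposite sides of 1 with sevoflurane and desflurane.

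**Figure D3:**
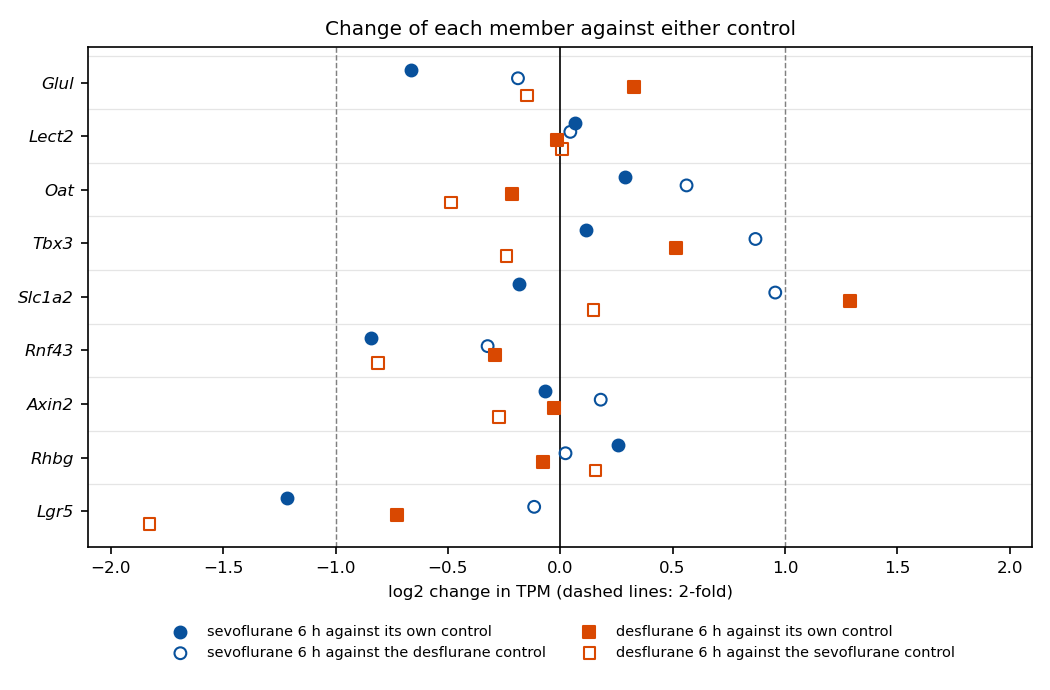
Each symbol is the log2 change in TPM of 1 member between 1 anesthetized and 1 control library (circles sevoflurane, squares desflurane), filled for the control of the same agent and open for the other control, and dashed lines mark 2-fold. The filled square of *Slc1a2* lies at 1.29 and the open one at 0.15, and the 4 symbols of *Rnf43* all lie below 0.

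The other genes of the pathway were taken from lists made by name. Among ligands, R-spondins, and the genes for their secretion, 20 of 22 had a row, and *Wnt2* and *Rspo4* had none. Of the 20 measured genes, 2 were above 2 TPM in all libraries, and none was called. The most abundant were *Wls*, which encodes the carrier that exports Wnt proteins (4.97, 6.07, 5.28, and 7.07 TPM in the order sevoflurane control, sevoflurane 6 h, desflurane control, and desflurane 6 h), and *Rspo3*, the R-spondin of the central vein (4.52, 4.59, 5.65, and 7.79). *Wnt9b*, a Wnt ligand of liver endothelium named here after its values were seen, was between 0.541 and 1.35 TPM. *Rspo3* was 1.02-fold and 1.38-fold higher in the 6 h libraries, and it was highest in the desflurane 6 h library.

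Among 16 measured Wnt receptors, *Fzd5* was called lower with sevoflurane (3.3% of all genes) and none was called with desflurane. The TPM values of *Fzd5*, a Frizzled receptor, were 15.2 and 7.55 in the sevoflurane control and 6 h library and 11.9 and 12.6 in the desflurane pair, and against the desflurane control the decrease with sevoflurane was 1.57-fold. *Fzd4* showed the largest increase of the expressed receptors with both agents, from 11.9 to 19.4 with sevoflurane and from 18.4 to 31.4 with desflurane. Both 6 h values were above both controls, although the sevoflurane 6 h library and the desflurane control were only 1.05-fold apart. *Fzd8*, the most abundant Frizzled gene, was 1.44-fold lower with sevoflurane and 1.61-fold higher with desflurane, and the co-receptor gene *Lrp5* was between 55.6 and 67.0 TPM.

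Of the 19 measured genes of the beta-catenin complex and its nuclear partners, none was called with either agent. *Ctnnb1*, which encodes beta-catenin itself, was between 81.4 and 90.2 TPM. *Tcf7l2*, which encodes a TCF factor, had TPM values of 25.1 and 24 in the sevoflurane and desflurane controls and 15.5 and 14.7 after 6 hours. It was 1.62-fold and 1.63-fold lower, the largest decrease with each agent among the genes of this list above 2 TPM, and the controls lay closer to each other than to any 6 h value. The same held after each agent was compared with the other control, with decreases of 1.55-fold and 1.71-fold. *Tcf7l1*, which encodes a related factor, was 1.08-fold and 1.49-fold higher.

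Of 16 measured Wnt inhibitors, *Sost*, which encodes a secreted LRP antagonist, was called higher with desflurane, from 0.940 to 3.0 TPM. The same call was made for 2.79% of all genes, and no inhibitor was called with sevoflurane. In the sevoflurane pair *Sost* had 1.34 and 2.03 TPM, so that both 6 h values were above both controls. Against the control of the other agent it was called higher with both sevoflurane (2.16-fold) and desflurane (2.23-fold). *Notum*, the most abundant and a gene for an enzyme that inactivates Wnt proteins, had values of 51.0 and 46.5 TPM in the sevoflurane pair and 31.6 and 39.3 in the desflurane pair. As for *Glul*, *Rnf43*, *Tbx3*, and *Slc1a2*, the value of *Notum* in the desflurane control was lower than that in the sevoflurane control.

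**Figure D4:**
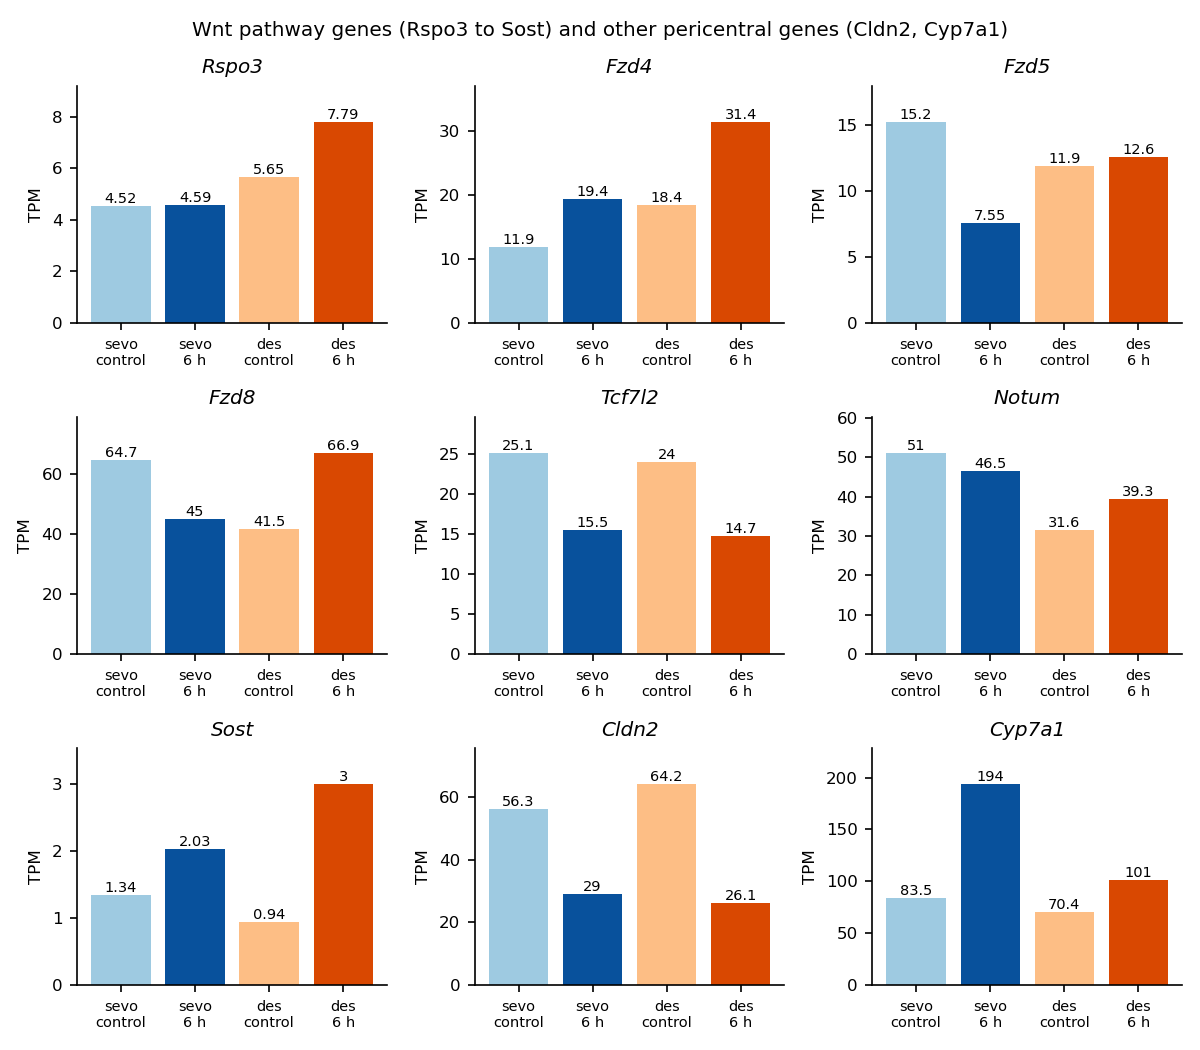
Bars give the TPM value (linear axis from 0, own scale in each panel) of 7 genes of the Wnt pathway and 2 other pericentral genes in each library, 1 library per bar. *Tcf7l2* and *Cldn2* are lower in both 6 h libraries than in both controls, and *Fzd4*, *Sost*, and *Cyp7a1* are higher. Among the 12512 genes above 0 TPM in all libraries, 13.8% are lower and 31% are higher in this way. *Fzd5* is lowest after 6 hours of sevoflurane.

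The members were then set beside other genes of known zonation. Of 15 other pericentral hepatocyte genes, 2 passed the limits with sevoflurane, with *Cyp7a1*, the rate-limiting enzyme of bile acid synthesis, 2.32-fold higher and *Nr1i3*, the nuclear receptor CAR, 2.33-fold lower. Against the desflurane control *Cyp7a1* was still called and *Nr1i3*, 1.64-fold lower, was not. With desflurane 3 passed the limits, with *Cyp1a2* 2.06-fold and *Ahr*, its regulator, 2.20-fold higher and *Cldn2*, a tight junction gene, 2.46-fold lower. The shares of all genes were 2.23% higher and 3.3% lower with sevoflurane and 2.79% higher and 1.48% lower with desflurane. Against the sevoflurane control *Ahr* and *Cldn2* kept their calls, whereas *Cyp1a2* was 1.22-fold higher and not called. *Cldn2* had TPM values of 56.3 and 64.2 in the sevoflurane and desflurane controls and 29.0 and 26.1 after 6 hours, so that it separated the states like *Rnf43* but with a wider gap. The list had a median log2 change of -0.13 for sevoflurane and 0.17 for desflurane, but both signs turned when the controls were exchanged (0.12 and -0.03), and 11 of the 15 genes were lower in the desflurane control than in the sevoflurane control. *Cyp2e1*, the most abundant of them, shared with *Glul* a lower value with sevoflurane (1.37-fold) and a higher one with desflurane (1.62-fold), but against the other control it was 1.21-fold higher with sevoflurane and 1.02-fold lower with desflurane.

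Of 17 measured periportal genes, which are expressed at the other end of the lobule, 3 were called higher with sevoflurane and 5 with desflurane, and *Aldh1b1* was called lower with desflurane. Over all genes, 2.23% and 2.79% were called higher with sevoflurane and desflurane, and 1.48% lower with desflurane. *Asl*, an enzyme of the urea cycle (2.38-fold and 2.47-fold), and *Sds*, which degrades serine (3.77-fold and 2.21-fold), were called higher with both agents. *Arg1*, another urea cycle enzyme, was called with sevoflurane (2.27-fold), and *Ass1* (2.28-fold) and the gluconeogenic genes *Pck1* (2.30-fold) and *G6pc* (4.86-fold) were called with desflurane. Against the other control *Asl*, *Arg1*, and *G6pc* kept these calls, as did *Sds* with sevoflurane. With desflurane against the sevoflurane control, *Ass1* (1.74-fold higher), *Sds* (1.55-fold higher), and *Aldh1b1* (1.45-fold lower) were no longer called, and *Pck1* turned to 1.13-fold lower. Here the median log2 change was 0.19 for sevoflurane and 0.35 for desflurane (0.30 and 0.13 with exchanged controls). For the pericentral members it was -0.06 and -0.03 (0.04 and -0.22 with exchanged controls). Over the 9136 expressed genes it was 0.05 and 0.11 (0.07 and 0.09 with exchanged controls).

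Among 20 measured genes that handle glutamine, glutamate, and ammonia outside the members, 4 were called higher with sevoflurane and 2 higher and 1 lower with desflurane. The shares of all genes were 2.23% higher with sevoflurane and 2.79% higher and 1.48% lower with desflurane. *Got1*, the cytosolic aspartate aminotransferase, was 4.88-fold and 3.65-fold higher, and *Slc25a22*, a mitochondrial glutamate carrier, was 2.53-fold and 2.06-fold higher. *Asns*, which makes asparagine from glutamine, and *Aldh18a1*, which opens proline synthesis from glutamate, were called higher with sevoflurane (3.81-fold and 2.73-fold), and *Aldh18a1* was called 2.29-fold lower with desflurane. The TPM values of *Aldh18a1* were 1.19 and 3.24 in the sevoflurane pair and 2.43 and 1.06 in the desflurane pair, and the controls differed by more than either 6 h library did from the other control. Against the other control both of its calls were lost, as was that of *Slc25a22* with desflurane (1.77-fold higher), whereas those of *Got1* and *Asns* were kept. None of these genes was lower past the limits with sevoflurane, the comparison in which *Glul* was 1.58-fold lower.

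Markers of other cells also differed between the libraries. The summed TPM of 7 pancreatic acinar markers amounted to 51.2 in the sevoflurane control, compared with 15.4 to 18.5 in the other libraries. *Cela1* made up nearly all of the lower sums, with 18.4 TPM after sevoflurane and 15.1 and 15.2 TPM in the desflurane pair. It had 22.8 TPM in the sevoflurane control and was not called. The other 6 markers were called lower with sevoflurane (3.3% of all genes), and *Ctrb1*, *Pnlip*, and *Prss1* were listed at 0 outside the sevoflurane control. *Rnf43*, *Glul*, *Lgr5*, and *Axin2* were also highest in the sevoflurane control, whereas *Rhbg* and *Lect2* were lowest there. Against the desflurane control, in which these 3 acinar genes were at 0, *Rnf43* was 1.25-fold lower with sevoflurane and 1.22-fold lower with desflurane. In the same order, *Glul* was 1.14-fold lower and 1.26-fold higher, *Lgr5* 1.08-fold and 1.65-fold lower, and *Axin2* 1.13-fold higher and 1.02-fold lower. The summed TPM of 8 Kupffer cell and leukocyte markers amounted to 248 and 146 in the sevoflurane control and 6 h library, with 7 of 8 lower and *Marco* and *Ptprc* past the limits, and it was 209 and 250 in the desflurane control and 6 h library. The summed hepatocyte markers stayed between 130143 and 145759. Markers of cholangiocytes, of stellate cells, and of endothelium, 5, 8, and 9 genes, held no called gene with either agent. The part of these differences in the values of the members was not tested.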

How the data were processed

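Liver RNA from 4 rats, 1 per condition, was sequenced as paired-end reads. The authors trimmed them with sickle and used HISAT2 for alignment to rn6, SAMtools for sorting, and StringTie with the rn6 refGene annotation for quantification. Library kits differ between the sources: the labels name a TruSeq kit, and the methods of the study name a Ribo-Zero Plus kit. The deposited tables hold a coverage signal per gene, FPKM values, and TPM values. In the deposited tables the TPM signal is scaled so that the assembled rows, which largely repeat the annotated genes, add up to 1000000, and the annotated rows add up to between 779824 and 813454 on the same scale.

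Annotated rows longer than 200 bp were used here, and TPM values were summed per symbol. Members were matched by symbol. The members and gene lists were chosen with earlier results of these data known. Genes were called with the rule of the study (TPM higher than 2 in the higher state, more than 2-fold). Named genes are all members and, per list, the 2 most abundant, every called gene, and the largest increase and decrease among genes above 2 TPM in both libraries, with values given for a part of them. No p-values were calculated because each condition has 1 library. Without read counts, the counting error of a value is unknown, and only its coverage can be given. RefSeq promoter windows (GRCr8) were searched for motifs without conversion of coordinates. Alternatives covered the limits, pseudocount, scaling, FPKM, rows used, and control. Python 3.11.15, numpy 2.4.6, and pandas 2.3.3 were used, and simulated data were used to test the calling step.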

Additional observations from a re-analysis of the deposited data

Results flagged for a closer look

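*Oat*, *Rhbg*, *Slc1a2*, *Glul*, and *Lect2* differed in opposite directions with sevoflurane and desflurane relative to their own controls, and this difference was not tested, since each agent has 1 library per state. The fold changes with sevoflurane and desflurane were 1.22 and 0.862 for *Oat*, 1.19 and 0.949 for *Rhbg*, 0.881 and 2.44 for *Slc1a2*, 0.631 and 1.26 for *Glul*, and 1.05 and 0.990 for *Lect2*. Against the control of the other agent, the directions were still opposite for *Oat* (1.48 and 0.714), and they were the same for the other members of this group.

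Among the assembled rows, which the comparisons do not use, a row on the strand opposite to *Lect2* had a TPM value of 1.74 in the desflurane 6 h library and 0.798 in its control, and the sevoflurane libraries listed no such row.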

How the results depend on the processing

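No paired analysis was possible because each condition has 1 library. Of 178 values of single members under the alternatives, 147 moved by less than the spread between the 2 controls (1 SD of the log2 values) and 31 moved by more. These counts were partly fixed in advance. The largest row per gene and short rows kept left every member unchanged, and the mean of the controls always moved less than the spread. The other control always moved a value by the full difference between the controls. The called value, that of *Slc1a2* with desflurane, kept its sign. With the other control, some uncalled values changed sign, such as *Glul* (0.33 to -0.15) and *Tbx3* (0.52 to -0.24) with desflurane. The signs of all members were kept under the 3 other scalings for both agents. Medians of the members also moved by less than the corresponding spread under the alternatives run, although they were near 0 and that with sevoflurane ranged from -0.10 with median-of-ratios scaling to 0.08 with assembled rows added, and that with desflurane from -0.22 with the other control to -0.00334 with the mean of the controls.

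The call of *Slc1a2* with desflurane was lost, leaving 0 members, with the control of the other agent, with the mean of the 2 controls, with assembled rows added, and with assembled rows in place of the annotated ones (8 members, an alternative chosen after seeing the data). Adding assembled rows counts the same reads again. With sevoflurane, 1 member was called lower without a TPM limit (*Lgr5*), 2 with a limit of 1.5-fold, and 1 with assembled rows added. The members lower in both 6 h libraries were 1 with FPKM and 1 with a gap of 1.2-fold. They were 1 with assembled rows added and 0 with assembled rows in place. With assembled rows added and with assembled rows in place, 1 member was higher in both 6 h libraries, *Slc1a2*. The value of *Lgr5* is limited by its coverage.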
